A study of Zea mays with 6 samples.

Results

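The maize array probes described here gave a signal in whole anthers and none that could be told from background in laser-microdissected pre-meiotic cells from anthers of the same labelled length. They were chosen by their measured values on the 2 arrays that compared these tissues in the inbred line W23. A probe qualified if its spot was called well above background by the scanner software, here called detected, in both whole-anther samples and in neither pre-meiotic sample, with no outlier flag on either array. Of 42034 maize probes, 42015 carried no such flag and 1504 of these, 3.58%, met the detection rule. Leaving out 2 probes named for a cohesin gene gave 1502, and the 300 with the highest mean log2 processed signal over both whole-anther samples were kept, which is 20.0% of them. Because the comparison of pre-meiotic cells with whole anthers selected the probes, it is described with values and carries no test. The mac1 samples played no part in the choice.

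The study measured messenger RNA on 3 two-colour oligonucleotide arrays that carried 6 samples in 4 groups. W23 pre-meiotic cells (2 samples) were cut by laser from wild-type anthers labelled 700 µm long, and W23 whole anthers (2 samples) were of the same length and, per the design text, from the same plants. A second label gives 701 µm for both samples of replicate 2. Pre-meiotic cells of a mac1 mutant (1 sample) and of a mac1 heterozygote (1 sample), which the study calls the wild type of that comparison, were cut from 1 mm anthers, and the labels do not give the inbred background or the allele. Pre-meiotic cells carried Cy3 in replicate 1 and Cy5 in replicate 2, with whole anthers in the opposite dye, whereas the mac1 mutant carried Cy5 and the heterozygote Cy3 with no swap. The W23 arrays shared a slide and a scan that the mac1 array did not share. TRIzol was used to extract whole-anther RNA and a small-scale column for the dissected cells, so tissue and extraction cannot be told apart. The number of plants is not given, and the spread between replicates may be technical.

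An anther before meiosis holds germ cells surrounded by somatic layers, which in maize become epidermis, endothecium, middle layer and tapetum, and by vascular and connective tissue. The germ cells become pollen mother cells and enter meiosis, while the tapetum feeds them. A whole anther is a mixture of all these cells, and its RNA includes that of the pre-meiotic cells. mac1 (multiple archesporial cells1) encodes a small secreted protein that limits the number of germ cells, and mutant anthers form too many germ cells and lack normal inner somatic layers. In a bulk sample, fewer cells of a type and less RNA per cell cannot be told apart.

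Depth on an array is set by signal over background. Among probes without flags, 73.9% and 77.7% were detected in W23 pre-meiotic cells, 84.3% and 82.4% in W23 whole anthers, 64.4% in mac1 mutant cells and 72.9% in mac1 heterozygote cells. Of 153 negative-control spots, between 1 and 4 were called detected in a sample. The tissue labels could be checked against 1 marker, AM1 (ameiotic1), which maize germ cells need to enter meiosis. Its 3 probes read 394 to 1039 in W23 pre-meiotic cells and 41.3 to 174 in whole anthers in processed signal, the scanner software's background-subtracted and dye-normalized brightness. The other markers of germ cells and of the somatic layers could not be read, since no further probe matched a listed gene symbol.

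None of the 300 probes could be given a gene name or a function. Of these, 250 (83.3%) were designed on a TC cluster, an assembly of overlapping expressed sequence tags, and the rest on a single sequence record. The TC share was 55.7% among the 1202 dimmer probes detected only in whole anthers, 64.6% among all probes without flags and 72.9% among the 27878 probes detected in all 4 W23 samples. The 300 probes stood for 299 sequences, because TC302671 was represented by 2 of them. No ID of the 300 matched the reference gene table, and none fell on a list of photosynthesis, cell wall, cuticle, flavonoid, hormone, redox or meiosis genes, so a count by pathway is void. They are therefore called by their cluster IDs.

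In W23 pre-meiotic cells the 300 probes were dim, though their medians lay above those of the negative controls. The negative controls had median processed signals of 17.2 and 15.8 in replicates 1 and 2, and the 1202 dimmer probes that met the rule had 19.6 and 16.6. The processed signal of the 300 ran from 14.5 over a median of 28 to 53.0 in pre-meiotic replicate 1 and from 15.3 over 18.7 to 34.9 in replicate 2. In whole anthers it ran from 55.3 over a median of 218 to 5178 in replicate 1 and from 72.0 over 251 to 4046 in replicate 2. The groups did not overlap, a consequence of the detection rule together with the cut at the 300 brightest. Among the 1202 dimmer probes that met the rule they did overlap, with up to 54.2 in pre-meiotic replicate 1 and down to 11.5 in whole-anther replicate 1. The median probe was still modest in whole anthers, at percentile 39.5 of all probes detected in both whole-anther samples.

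The unnormalized values of the same spots describe the selection further. The net signal, the median spot brightness minus its local background, had a median of 20 in pre-meiotic replicate 1, where negative controls had 18, and of 7 in replicate 2, where they had 5.5. In whole anthers it had a median of 45.5 in replicate 1 against 6 for the negative controls, and of 54.75 in replicate 2 against 17.5. Only 2 of the 300 probes in pre-meiotic replicate 1 and 1 in replicate 2 lay above every negative control, against 294 in whole-anther replicate 1 and 300 in replicate 2. In the authors' deposited table all 300 probes stand at 0 in both pre-meiotic columns and none stands at 0 in a whole-anther column. Of all probes without flags, 37.2% and 30.0% stand at 0 in the pre-meiotic columns of replicates 1 and 2. In the whole-anther columns these shares are 21.5% and 23.5%.

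**Figure D1:**
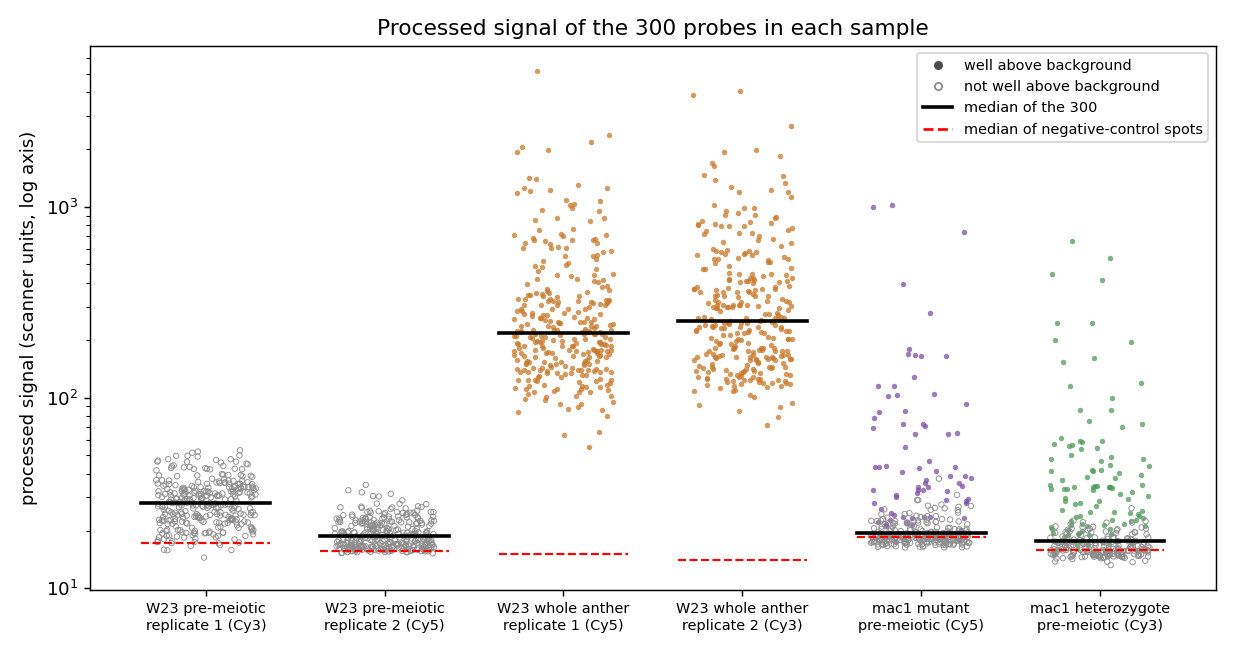
Processed signal (log axis, scanner units) of the 300 probes in each of the 6 samples; filled points were detected, open points were not, black lines mark the medians of the 300 and dashed red lines those of 153 negative-control spots. The pre-meiotic samples lie between 14.5 and 53.0 and the whole anthers from 55.3 up, after the detection rule and the cut at the 300 brightest. The mac1 samples hold both detected and undetected probes.

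The brightest was TC311712, at 35.3 and 18.9 in pre-meiotic replicates 1 and 2, against 5178 and 3853 in whole anthers. The next, TC293357, had 21.0 and 17.5 in pre-meiotic cells, against 1947 and 1978 in whole anthers. Both were thus strong and steady between the whole-anther replicates, and within the range of the negative controls in the dissected cells. TC291361 had 31.9 and 22.5 in pre-meiotic cells, against 2181 and 1379 in whole anthers. TC312394 had 39.0 and 18.0 in pre-meiotic cells, against 2380 and 1200 in whole anthers. TC307594 had 46.1 and 22.1 in pre-meiotic cells, against 1405 and 1704 in whole anthers. Of these 3, TC291361 and TC312394 were higher in whole-anther replicate 1 and TC307594 in replicate 2.

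The other 10 of the 15 brightest (TC301747, TC280481, TC289077, TC306670, TC308594, TC306767, TC312453, TC299389, TC291061 and TC281911) lay between 713 and 2059 in whole anthers. TC291061 held the lowest of these whole-anther values, in replicate 1, with 1856 in replicate 2, and had 42.4 and 22.4 in pre-meiotic cells. At the lower limit, TC315632, CD958267 and TC299172 were just inside, with mean log2 processed signals of 6.88, 6.88 and 6.87 in whole anthers. TC291171, TC311338 and TC302731 were just outside, at 6.86, 6.85 and 6.85. The limit of 300 thus cuts through a continuous range of signals.

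A signal that is not well above background gives only a bound, so each difference is given as "at least N-fold". The bound sets the mean whole-anther log2 level over both replicates against the pre-meiotic mean of, in each sample, the higher of the probe's own level and the lowest level detected there. With the offset of 50 and loess, the lowest detected level was 5.77 in pre-meiotic replicate 1 and 5.66 in replicate 2. The 300 probes had a median of 5.97 in replicate 1 and a minimum of 5.72 in replicate 2. The bound is thus mostly a ratio to the probe's own undetected level, and no strict minimum. On intensities corrected with an offset of 50, which draws dim probes together, the bound was at least 1.09-fold lower in pre-meiotic cells for every probe, with a median of 1.39 and a maximum of 7.25 for TC311712. By this measure 45 probes were at least 2-fold lower and 2, TC311712 and TC293357 (5.04), at least 4-fold lower. On processed signals, after each array's log ratios were centred on their median and the arrays scaled to each other, the bounds ran from 3.79 over a median of 10.8 to 184, again for TC311712, and 299 of 300 were at least 4-fold and 167 at least 10-fold lower. The same values selected the probes, so these counts are largely set by the rule and the brightness cut and are not read as a result. The share of all probes past these folds is not given. TC311712 and TC293357 had the highest bounds on both scales, and the size of a bound depended on the background correction and the scaling. Centring can put such a bound above the ratio of the printed signals, as for TC311712.

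Most of the 300 had like signals in the whole-anther replicates, and a few differed widely. In log2 processed signal, replicate 1 minus replicate 2 had a median of -0.11 and an SD of 0.81 over the 300 probes. The probes split into 116 higher in replicate 1 and 184 higher in replicate 2, and 251 were within 2-fold. At least 4-fold separated the replicates for 12 probes. The correlation between replicates across the 300 probes was 0.70 on the log2 scale, given as a description, since probes are not independent and share the array's dye and background.

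TC298891 had 278 in whole-anther replicate 1 and 4046 in replicate 2, with 35.2 and 27.8 in pre-meiotic cells. TC310207 had 195 and 2664 in whole anthers, and TC305698 had 113 and 1448. TC301447 had 63.8 and 474. These 4 were higher in replicate 2, which carried Cy3. TC296314 ran the other way, with 660 in replicate 1 and 120 in replicate 2. Each whole-anther replicate had its own dye, so a dye effect of a probe and a replicate difference cannot be told apart, and the mean of such a probe is not a stable level.

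**Figure D2:**
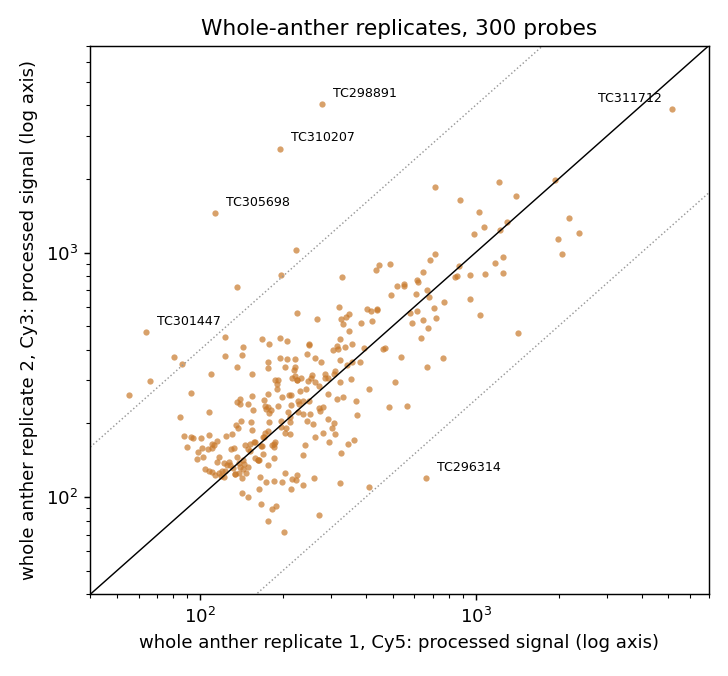
Processed signal of the 300 probes in whole-anther replicate 1 (x, Cy5) and replicate 2 (y, Cy3), both on log axes; the solid line marks equal signal and the dotted lines a 4-fold difference. Most points follow the solid line, and TC298891 (278 and 4046), TC310207, TC305698 and TC301447 lie far above it.

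Some sequences had a further probe on the array, a second reading that took no part in the selection unless it was itself selected. In TC302671 both probes were among the 300. The first had 43.1 and 22.2 in pre-meiotic cells, against 319 and 600 in whole anthers, and the second had 25.2 and 24.9 in pre-meiotic cells, against 247 and 298 in whole anthers. Both of its probes therefore showed whole-anther signal only.

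The other 31 sequences with a further probe did not repeat the pattern on it. None of the 31 further probes was detected in whole anthers only. Detection in all 4 W23 samples was seen for 12, in both whole anthers and 1 pre-meiotic sample for 6, in no W23 sample for 7 and in another combination for 6. All 18 that were detected in both whole anthers were also detected in at least 1 pre-meiotic sample, and 20 of 31 had a pre-meiotic detection. Over the array, 32873 probes without flags were detected in both whole anthers, and only 1504 of them had no pre-meiotic detection. The 18 of 18 is near that share and is not read as a result. Of all 42015 probes without flags, 27878 were detected in all 4 W23 samples and 3590 in none. Of the 12 detected everywhere, 7 were higher in pre-meiotic cells and 5 were lower by mean log2 processed signal, and 4 were higher and 8 lower by normalized level. TC302314, TC292610 and CD958267, the last 2 named after their values were seen, changed direction between the scales. So the label "only in whole anthers" is used here for a probe and not for its cluster. A further probe that no W23 sample detected, as for 7 of the 31, says nothing of the cluster in pre-meiotic cells.

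In TC308121, the further probe read 44.7 and 132 in pre-meiotic cells, against 1983 and 2561 in whole anthers, while the selected probe read 30.7 and 23.4 in pre-meiotic cells, against 668 and 700 in whole anthers. In TC301165, it read 152 and 412 in pre-meiotic cells, against 2250 and 2896 in whole anthers, with 18.8 and 16.8, against 393 and 409, on the selected probe. Both sequences were lower in pre-meiotic cells on either probe, and the brighter probe gave a pre-meiotic signal. In TC286421, chosen after its values were seen, the further probe read 299 and 440 in pre-meiotic cells, against 4171 and 4238 in whole anthers. In these 3 clusters the direction was shared and the absence was not.

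In TC302314, the further probe read 122 and 29.6 in pre-meiotic cells, against 77.6 and 39.6 in whole anthers, so its samples overlapped. In TC280481 it was detected in 1 pre-meiotic sample, at 22.4 and 16.1, against 55.9 and 44.4 in whole anthers, far under the 1988 and 1133 of the selected probe. In TC308594 it read 20.0 and 14.7 in pre-meiotic cells, against 11.8 and 12 in whole anthers, close to the negative controls. Opposite directions were also seen. TC299672, likewise singled out after its values were seen, had 6451 and 7486 in pre-meiotic cells, against 2488 and 2706 in whole anthers on its further probe, and 33.8 and 24.2, against 212 and 213, on the selected one. The further probe of TC301447 was level, at 3257 and 2735 in pre-meiotic cells, against 3087 and 3012 in whole anthers.

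Further probes of one cluster often differed elsewhere on the array too. Counting each ordered pair of probes of a cluster once, the second probe was of the same class in 2 of 33 pairs (6.06%) that began with one of the 300, both from TC302671. It was so in 8 of 212 pairs (3.77%) that began with any probe detected only in whole anthers and in 3006 of 4583 pairs (65.6%) that began with a probe detected in all 4 W23 samples. The second of these shares is near the 3.58% of all probes that met the rule. The third is likewise near the share of its own class, 27878 of the 42015 probes without flags. The gap between the shares is therefore not read as a result. What sets a probe of a cluster apart from its partner was not tested.

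**Figure D3:**
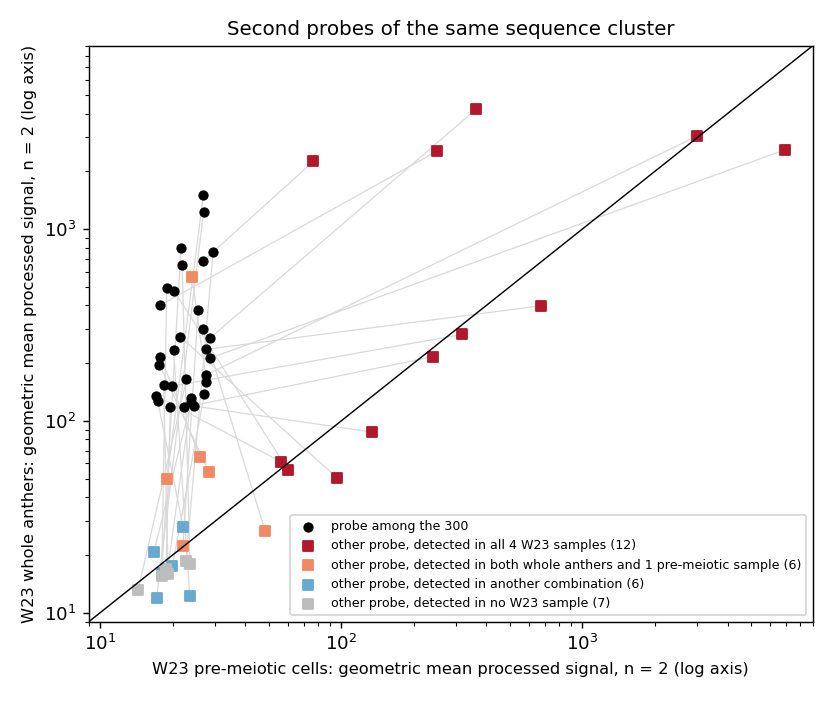
Geometric mean processed signal of W23 pre-meiotic cells (x) and whole anthers (y), n = 2 each, on log axes, for 31 selected probes (black points) joined by grey lines to the further probe of the same cluster (squares, coloured by the W23 samples it was detected in). The black points form a column at low pre-meiotic signal, and the squares spread from background to values on both sides of the line of equal signal, 12 of them detected in all 4 W23 samples.

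The mac1 array gave the 300 probes in 2 samples that the selection did not use, both of pre-meiotic cells, with 1 sample per group and therefore no test. In mac1 mutant cells 75 of the 300 were detected (25%, exact 95% interval 20.2% to 30.3%, which covers counting error only) and in heterozygote cells 109 (36.3%, 30.9% to 42.1%). Among all probes without flags 64.4% were detected in the mutant and 72.9% in the heterozygote. Both samples detected 45 of the 300, the mutant alone 30, the heterozygote alone 64, and neither 161 (53.7%, 47.8% to 59.4%), against 23.2% of all probes in neither.

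Other groups of probes are given for scale. Of the 18817 probes detected in all 4 W23 samples whose mean whole-anther signal fell within the range of the 300, a group defined after the data were seen, 92.2% were detected in the mutant and 97.4% in the heterozygote, and 1.63% in neither. That group was required to be detected in W23 pre-meiotic cells and the 300 were required not to be, and the signals were matched in range and not in distribution, so nothing about the 300 is read from the gap. Of the 3589 probes detected in no W23 sample, 7.50% were detected in the mutant, 13.9% in the heterozygote and 81.5% in neither. The 1202 dimmer probes detected only in whole anthers had 14.1% in the mutant, 27.3% in the heterozygote and 65.4% in neither. Of the 139 probes with the opposite W23 pattern, detected only in pre-meiotic cells, 23% were detected in the mutant, 50.4% in the heterozygote and 43.2% in neither, so probes seen in W23 pre-meiotic cells and not in whole anthers were also often undetected in mac1 pre-meiotic cells.

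By whole-anther signal, the 100 brightest included 37 detected in the mutant and 46 in the heterozygote, with 42 in neither. The next 100 included 20 in the mutant, 30 in the heterozygote and 60 in neither, and the last 100 included 18, 33 and 59. A detection call on this array was a low bar, since only 17 of the 300 in the mutant and 22 in the heterozygote had a net signal above every negative control, against 44.1% and 52.3% of all probes without flags. The authors' deposited table lists above 0 only 25 of the 300 in its mutant column and 42 in its heterozygote column, where 51.1% and 58% of all probes without flags stand above 0.

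**Figure D4:**
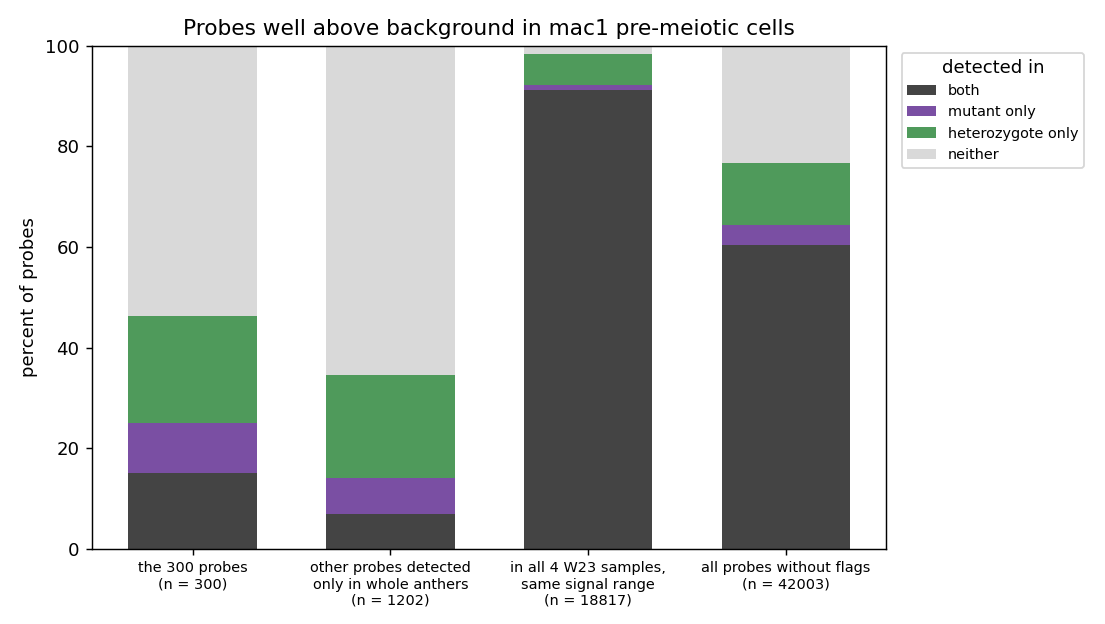
Percent of probes detected in both mac1 samples, the mutant only, the heterozygote only or neither, for the 300 probes, the 1202 dimmer probes detected only in whole anthers, the 18817 probes detected in all 4 W23 samples within the same whole-anther range, and all 42003 probes without flags; 1 sample per genotype. Neither sample detected 53.7% of the 300 and 1.63% of the probes within the same whole-anther range, a group that the rule required to be detected in W23 pre-meiotic cells.

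The 5 of the 300 that were brightest in whole anthers among those both mac1 samples detected had mac1 signals far below those of whole anthers. Ranking by the whole-anther signal itself favours such a drop. The mac1 array was also dimmer for all probes without flags. Their median processed signal was 64.2 in the mutant and 69.5 in the heterozygote, against 189 and 207 in whole-anther replicates 1 and 2. TC291361 read 43.3 in the mutant and 59.4 in the heterozygote, TC312394 read 64.2 and 85.9, and TC307594 read 84.0 and 70.3. TC306670 read 28.6 in the mutant and 61.3 in the heterozygote, and TC312453 read 165 and 33.9. All 5 had at least 879 in whole anthers. Other probes detected in both were brighter in mac1 cells, such as TC287845 at 740 in the mutant and 413 in the heterozygote. By the same ranking, the 5 brightest that neither sample detected were TC293357, TC289077, TC306767, TC299389 and TC291061. They read 17 to 19.4 in the mutant and 14.8 to 17.3 in the heterozygote.

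The size of the mutant over heterozygote ratio was measured for the 139 probes detected in at least 1 mac1 sample. On the main scale, with the offset of 50 and loess, the median log2 ratio was 0.0046 for them and -0.0096 for all 32248 probes so measured. It was above 0 for 72 and below 0 for 67, with an SD of 0.20. None was at least 2-fold higher and none at least 2-fold lower, where 0.781% of all measured probes were higher and 0.549% lower by that much. This count rests on the offset. Without it 12 of the 139 were at least 2-fold higher and 18 lower, with 4.97% of all measured probes higher and 6.05% lower. On processed signals 20 were higher and 24 lower, with 7.49% of all measured probes higher and 14.8% lower. With median centring in place of loess 0 were higher and 1 lower (0.546% and 0.89% of all measured probes), and with the mean dye ratio of the W23 arrays subtracted 1 was higher and 1 lower (0.905% and 0.623%). Of the 15 above 0 in both mac1 columns of the authors' deposited table, 1 was higher and 0 lower, where 1.53% of all such probes were higher and 1.02% lower.

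The 8 highest ratios on the main scale belonged to TC307128, TC291212, TC307400, TC287845, TC306606, TC311712, TC302766 and TC285116. TC307128 read 994 in the mutant and 196 in the heterozygote, a log2 ratio of 0.90 on the main scale and a 4.63-fold higher processed signal after centring. TC291212 read 1025 in the mutant and 538 in the heterozygote, with a log2 ratio of 0.54. TC287845 read 740 in the mutant and 413 in the heterozygote, with a log2 ratio of 0.41. These 3 were detected in both samples, and their net signals of 78, 100 and 72 in the mutant and 31.5, 73 and 59 in the heterozygote lay above every negative control.

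Of the remaining 5, TC285116 was detected in both samples, at 278 in the mutant and 154 in the heterozygote, and 4 were detected in the mutant only. TC306606 read 179 in the mutant and 13.9 in the heterozygote, 11.9-fold higher on centred processed signals. TC307400 read 169 in the mutant and 13.7 in the heterozygote, 11.2-fold higher on centred processed signals and 1.41-fold on the main scale. These folds are ratios to the probe's own undetected heterozygote signal and no strict minimums. The strongest whole-anther probe, TC311712, read 167 in the mutant and 13.3 in the heterozygote. Its net signal was 15 in the mutant and 7 in the heterozygote, within the range of the negative controls, which reached 15.5 in the mutant and 17 in the heterozygote. The net signals of TC306606 (24 in the mutant, 11 in the heterozygote) and TC307400 (28.5 and 11.5) were above every negative control in the mutant. TC302766 read 43.0 in the mutant and 17.9 in the heterozygote. On processed signals a negative control reached 396 in the mutant, above the mutant values of all 5.

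The 8 lowest ratios belonged to TC296314, TC314183, TC289757, TC314202, TC311143, TC283583, BM080533 and TC295346. TC296314 read 21.1 in the mutant and 663 in the heterozygote, a log2 ratio of -0.99 on the main scale. It was 34.4-fold lower in the mutant on centred processed signals, a ratio to an undetected mutant signal and no strict minimum. TC314183 read 22 in the mutant and 445 in the heterozygote, with a log2 ratio of -0.77. TC289757, the only one of the 8 detected in both samples, read 24.4 in the mutant and 246 in the heterozygote, with a log2 ratio of -0.47. For these 3 the heterozygote net signals of 90, 58 and 37.5 stood above every negative control and the mutant ones did not.

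The other 5 were detected in the heterozygote only. TC314202 read 24.5 in the mutant and 201 in the heterozygote, and TC283583 read 19.5 and 160. BM080533 read 19.3 in the mutant and 119 in the heterozygote, TC311143 read 23.5 and 72.7, and TC295346 read 20.7 and 56.5. The mutant values of all 5 lay between 19.3 and 24.5, near the median of 18.5 of the negative controls, so each difference is a ratio to an undetected signal. In the heterozygote a negative control reached 134, above BM080533, TC311143 and TC295346. With 1 sample per genotype in fixed dyes, genotype, dye and sample cannot be told apart for any of these probes.

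**Figure D5:**
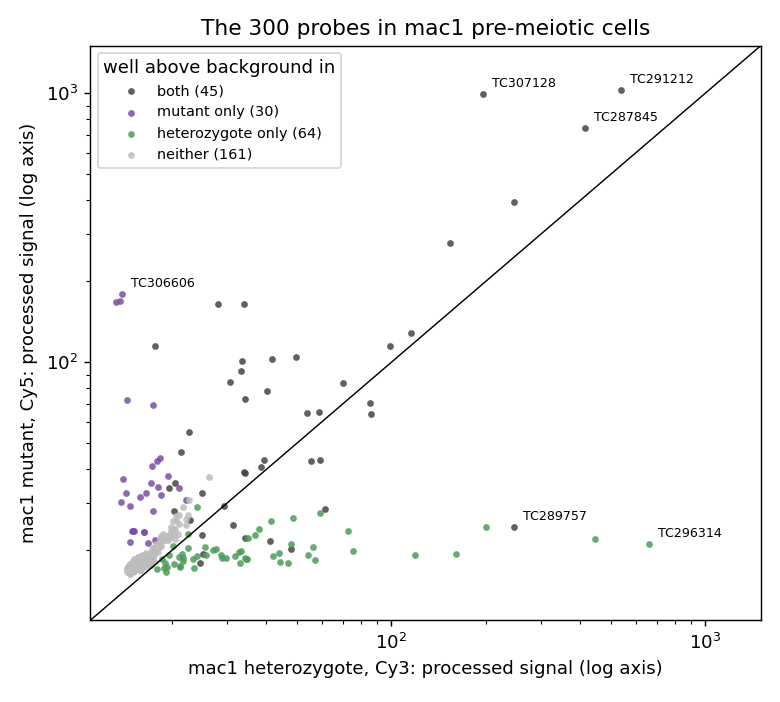
Processed signal of the 300 probes in mac1 heterozygote cells (x, Cy3) and mac1 mutant cells (y, Cy5), log axes, coloured by the samples that detected them, with the line of equal signal; 1 sample per genotype. Most points sit at background in the lower left, TC291212, TC307128 and TC287845 are high in both, and TC296314 and TC289757 are high in the heterozygote.

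A few of the 300 were brighter in mac1 pre-meiotic cells than in either W23 whole-anther sample. On processed signals, 3 exceeded both whole-anther values in the mutant and 3 in the heterozygote. In the mutant these were TC307128 (994, against 620 and 756 in whole anthers), TC291212 (1025, against 279 and 234) and TC285116 (278, against 164 and 108). In the heterozygote they were TC291212 (538), TC314183 (445, against 140 and 240) and TC296314 (663, against 660 and 120). All of them were at 15.3 to 36.6 in W23 pre-meiotic cells. On normalized levels 8 did so in the mutant and 8 in the heterozygote, 3 of them in both. The share of all probes that did so is not given, so these counts are not read as a result about the 300. Anther length, slide and scan differ between the W23 and mac1 arrays along with the cells and cannot be told apart. The inbred background of the mac1 samples is not given and may differ too.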

How the data were processed

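Probes and lists were chosen with earlier results of these data known. The deposited scanner files hold intensity per spot, written by Agilent Feature Extraction 10.5.1.1 per the file headers. Their processed intensity was background-subtracted and dye-normalized by that software, per the file headers. The authors' deposited table holds 1 intensity column per sample, and limma 3.8.3 and R 2.13 are named in the submitters' processing notes. Each RNA was amplified linearly before Cy3 or Cy5 labelling, per the labels' protocols.

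Here, R 4.3.3 and limma 3.58.1 corrected median spot and background signals by normexp with an offset of 50. Loess within arrays (control and flagged spots at weight 0) and Aquantile between arrays followed. A check on simulated data changed only probes brighter than any selected here and left out Aquantile. How these steps act on ratios of dim probes was therefore not tested. Processed signals are printed unless another scale is named. A mac1 ratio is Cy5 over Cy3 on 1 array, and its processed ratio is centred on the array's median. Folds for undetected signals are bounds, on processed signals after that centring and Aquantile. Where the probe's own undetected signal was higher than the lowest detected one, the bound is a ratio to it and no strict minimum. Intervals are exact binomial at 95%. No test was made, because the selection used the W23 contrast and mac1 has 1 sample per group. Named probes were, by a fixed rule, the 15 brightest, 3 on each side of the limit, the 8 highest and 8 lowest mac1 ratios, the 5 brightest in both and in neither mac1 sample, the 5 largest replicate differences, and clusters with 2 selected probes or with a further probe in pre-meiotic cells (5 brightest). Brightest refers to whole-anther signal. Alternatives were the replicate arrays alone, the ranking, the number kept, the detection call, the offset, median centring, processed signals, the authors' table and a dye correction. The files hold no probe sequence, so none is printed. All value columns were used or mapped.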

Additional observations from a re-analysis of the deposited data

How the results depend on the processing

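The number of probes detected only in whole anthers, 1502, lay between 3523 and 5870 when 1 W23 array alone decided, and the 300 brightest of those lists shared 197 probes with the main list for the array of replicate 2 and 68 for the array of replicate 1. The share of the 300 detected in the mac1 mutant (25%) then lay between 31% and 53.7%, in the heterozygote (36.3%) between 44.3% and 65%, and in neither (53.7%) between 24.7% and 45.3%. With all 1502 probes these shares were 16.3%, 29.1% and 63.0%, and with the 100 brightest 37%, 46% and 42%. The counts of probes at least 2-fold higher and lower in the mutant, 0 and 0, were 0 to 1 and 0 to 1 with 1 W23 array. They were 12 and 18 without the offset (4.97% and 6.05% of all measured probes), 20 and 24 on processed signals (7.49% and 14.8%) and 1 and 1 with the mean dye ratio of the W23 arrays subtracted. Median centring gave 0 and 1, and the values deposited by the authors gave 1 and 0. The median mac1 log2 ratio was 0.14 in the authors' deposited table. The median log2 bound of pre-meiotic cells over whole anthers, -0.47, lay between -0.99 and -0.64 with 1 array, and was -0.12 for all 1502 probes, -0.92 for the 100 brightest, -1.89 without the offset and -3.44 on processed signals. The causes were not tested, except that fewer samples in the rule admit more probes. Ranking by normalized levels shared 272 of 300 probes and the other detection call of the software shared 299, and neither moved any of these values beyond the spread. Among 90 alternative values of 21 named mac1 ratios, 4 had the other sign, over 3 probes. The authors' table gives no bound, since its pre-meiotic values are 0. No paired analysis was possible because no result comes from a test: the W23 arrays pair the groups, but that contrast chose the probes. Signal over background limits every pre-meiotic and mac1 value.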

Other observations

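Outside the 300, some of the dimmer probes detected only in whole anthers were bright in mac1 cells. The highest in the mutant, TC294498, read 35531 in the mutant and 40521 in the heterozygote, against 42.4 and 22.9 in W23 pre-meiotic cells and 48.0 and 100 in W23 whole anthers. TC312285 read 6103 in the mutant and 3058 in the heterozygote, and 14.5 and 14.1 in W23 pre-meiotic cells and 20.2 and 17.5 in W23 whole anthers. DR815701 read 704 in the mutant and 12.7 in the heterozygote, where it was not detected, and 12.5 to 17.3 in the 4 W23 samples. These 3 were chosen after their values were seen, as the highest processed signals of that group in the mutant.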
